A study of Mus musculus with 12 samples.

Results

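Necroptosis and pyroptosis genes were read out in the kidneys of mice lacking FAN1, a DNA repair nuclease, in the proximal tubule. The set held 10 genes, found in the table by their NCBI Gene numbers, out of 27179 genes listed. It comprised 4 necroptosis genes (Ripk1, Ripk3, Mlkl, Casp8) and 6 inflammasome and pyroptosis genes (Casp1, Casp4, Gsdmd, Nlrp3, Pycard, Il18). RNA was taken from whole kidneys of 12 mice, with 3 mice for each combination of genotype (wild-type or FAN1KO) and treatment (saline or cisplatin). FAN1KO mice carried the genotype γGT1-Cre;Fan1-/-, in which Cre is driven by the Ggt1 promoter of proximal tubule cells, so other kidney cells were not targeted. All mice were 8 to 12 weeks old. Cisplatin was injected into the peritoneum at 2 mg/kg once a week for 5 weeks, and the other mice received saline. The labels give a mixed strain background for every mouse, whereas the study's methods describe a backcross to 1 inbred background. The values were TPM, transcript abundances scaled to the same total in every library. They are already divided by gene length, so levels of different genes can be set side by side.

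Necroptosis is a lytic form of cell death. RIPK1, a kinase bound to the tumour necrosis factor receptor, hands the signal to the kinase RIPK3 when caspase-8 is not active, and RIPK3 phosphorylates MLKL, which then perforates the plasma membrane. Pyroptosis is lytic as well and starts from inflammasomes, in which a sensor such as NLRP3 recruits the adaptor PYCARD (also called ASC) and thereby caspase-1. Caspase-1 matures the cytokine IL-18 and cleaves gasdermin D, the pore-forming protein, and caspase-4 (named caspase-11 in much of the mouse literature) cleaves gasdermin D after sensing bacterial lipopolysaccharide inside the cell. Many of these genes are expressed both in injured tubular epithelium and in leukocytes. In whole-kidney RNA, fewer cells of a type and less RNA per cell cannot be told apart.

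Recovered read totals ranged from 37201995 to 82947275 per library (median 42170435). Fan1 itself did not check the genotype labels: it stood at 3.04 ± 0.945 TPM (SD, n = 3) in wild-type saline and 1.66 ± 0.563 TPM in FAN1KO saline, and at 3.07 ± 0.656 and 2.59 ± 0.990 TPM in the respective cisplatin groups, with overlapping groups at both treatments. Proximal tubule transcripts were abundant in every library, the 10 markers of that segment summing to between 3566 and 14301 TPM. Transcripts of 4 Y-linked genes marked 1 library per group, namely wild-type cisplatin 1, FAN1KO cisplatin 3, FAN1KO saline 1 and wild-type saline 3, and those 4 libraries stood apart in many genes, as described below. Every result that follows is from all 12 libraries unless stated.

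Casp8 and Ripk1, which act upstream, were the highest of the set in saline kidneys, and Ripk3, Casp1, Mlkl, Casp4 and Nlrp3 were near or below 1 TPM. In wild-type saline kidneys, Casp8 stood at 21.7 ± 0.258 TPM, Ripk1 at 13.7 ± 0.848 TPM and Pycard at 11.2 ± 2.91 TPM. The highest Pycard library lay just under the lowest Ripk1 library. Il18 at 3.79 ± 1.88 TPM and Gsdmd at 3.14 ± 1.54 TPM followed and overlapped each other. Casp4, Casp1 and Mlkl were between 1.01 and 1.15 TPM on average and did not differ beyond their spread. Ripk3 at 0.602 ± 0.172 TPM overlapped both Casp1 and Mlkl, and Nlrp3 was lowest at 0.281 ± 0.112 TPM.

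Ripk3 rested on 12 to 259 reads per library and Nlrp3 on 14 to 109, against 307 to 1670 for Pycard and 1318 to 2999 for Casp8. Of the 10 genes, 9 reached 1 TPM in at least 3 libraries, the minimum for a test. Nlrp3 reached it in 1 library and was not tested. Ripk3 reached it in 5 libraries, all of them cisplatin libraries. Among wild-type kidneys only wild-type cisplatin 2 and 3 did so. Ripk3 thus entered the test only with the FAN1KO cisplatin libraries, the group in which it was highest.

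Start-proximal sequence is shown for Ripk3, Casp4 and Pycard, the members that rose with the genotype under cisplatin, held that call under another scaling and have a start inside an annotated transcript. The lines give the 250 bases before the RefSeq start on the gene's own strand, 5′ to 3′ (GRCm38.p6), namely chr14:55788858-55789107 (minus strand), chr9:5308599-5308848 (plus strand) and chr7:127993868-127994117 (minus strand). Capitals mark matches to the letters GGGNNTTTC on either strand, an NF-kB core.
Ripk3: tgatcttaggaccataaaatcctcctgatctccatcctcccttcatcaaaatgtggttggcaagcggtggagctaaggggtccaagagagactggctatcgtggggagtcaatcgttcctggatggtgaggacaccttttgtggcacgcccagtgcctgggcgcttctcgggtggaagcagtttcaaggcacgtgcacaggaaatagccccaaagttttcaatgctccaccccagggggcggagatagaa
Casp4: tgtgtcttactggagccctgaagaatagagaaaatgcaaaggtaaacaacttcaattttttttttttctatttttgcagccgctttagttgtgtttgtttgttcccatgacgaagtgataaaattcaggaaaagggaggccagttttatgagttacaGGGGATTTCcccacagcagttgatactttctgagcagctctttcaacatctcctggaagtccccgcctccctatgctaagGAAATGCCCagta
Pycard: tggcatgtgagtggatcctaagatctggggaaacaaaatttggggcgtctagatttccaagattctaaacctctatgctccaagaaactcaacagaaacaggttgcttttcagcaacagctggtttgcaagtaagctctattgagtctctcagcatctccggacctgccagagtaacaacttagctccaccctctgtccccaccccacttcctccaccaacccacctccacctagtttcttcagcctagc

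The Casp4 window held 2 such matches, at 93 to 85 and at 13 to 5 bases before the start, and the Ripk3 and Pycard windows held none. Across the 32851 promoter entries of the same length, 3.72% held the core. A pair of further patterns was searched on both strands in the 9 members with an entry. The STAT pattern TTCNNNGAA was found in 1 member, Ripk1, against 7.02% of all entries, and the interferon-response core GAAANNGAA in 0 members, against 7.13%. Casp4 begins 1567 bases after Casp1 ends on chromosome 9, the next gene along. In RefSeq, Ripk1 overlaps Serpinb6a, Ripk3 overlaps Gm32092 and Il18 overlaps Bco2 and Tex12, and whether the counting used strand is not given in the sources used here, so reads in those overlaps cannot be assigned to either gene with certainty.

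The first question was whether loss of FAN1 altered these genes in cisplatin-treated kidneys. Ripk3, Mlkl and Casp8 of the necroptosis arm and Casp4 and Pycard of the inflammasome arm rose in FAN1KO cisplatin relative to wild-type cisplatin kidneys, 5 of the 9 genes tested. Called higher in this comparison were 19.6% of all 14972 tested genes (23.9% called in either direction). The median difference of the 9 genes was 0.98 on the log2(TPM + 1) scale, beside 0.24 for all tested genes. Differences on this scale understate the change of genes near 1 TPM.

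Ripk3, the kinase that activates MLKL, was measured at 6.30, 4.97 and 3.38 TPM in the FAN1KO cisplatin kidneys and at 0.451, 1.20 and 1.80 TPM in the wild-type cisplatin kidneys. Every FAN1KO value lay above every wild-type value, and the mean was 4.24-fold higher. The difference was 1.47 ± 0.28 (SE) in log2(TPM + 1), with adjusted p = 0.00541.

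Mlkl, the pore-forming effector of necroptosis, stood at 8.68, 6.41 and 4.88 TPM in FAN1KO cisplatin and at 1.01, 3.01 and 2.50 TPM in wild-type cisplatin kidneys. The groups did not overlap, and the log2 difference was 1.30 ± 0.34 (SE, adjusted p = 0.0218). Casp8, whose protease activity restrains RIPK1 and RIPK3, stood at 36.3, 33.8 and 29.4 TPM against 23.2, 26.4 and 27.2 TPM. These groups did not overlap either, yet the difference was small, 0.36 ± 0.11 (SE, adjusted p = 0.0336). After each library was rescaled by the median ratio of its genes to the 12-library average, the Casp8 difference was 0.06 (adjusted p = 0.770).

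Ripk1, the kinase at the head of the pathway, stood at 18.2, 15.6 and 15.6 TPM against 13.4, 14.1 and 14.4 TPM. Its groups did not overlap, but its difference of 0.21 did not pass (adjusted p = 0.156), and it was -0.07 under median-ratio scaling.

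Casp4 had the largest difference of the 9 tested genes, 1.57 ± 0.35 (SE, adjusted p = 0.0113). It stood at 11.5, 8.31 and 5.07 TPM in FAN1KO cisplatin and at 1.05, 2.94 and 2.37 TPM in wild-type cisplatin kidneys, without overlap. Pycard, the inflammasome adaptor, stood at 37.4, 23.3 and 21.7 TPM against 6.25, 12.1 and 11.8 TPM. Again no wild-type library reached the lowest FAN1KO library, and the log2 difference was 1.38 ± 0.34 (SE, adjusted p = 0.0160).

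Gsdmd, the pore of pyroptosis, stood at 17.3, 11.2 and 7.98 TPM in FAN1KO cisplatin and at 2.90, 8.06 and 6.30 TPM in wild-type cisplatin kidneys. The groups overlapped by 1 library, and the difference of 0.98 ± 0.45 did not pass (SE, adjusted p = 0.134). Il18 stood at 7.45, 7.25 and 4.48 TPM against 4.10, 5.07 and 4.81 TPM, a difference of 0.36 with a 95% interval from -0.27 to 0.99. Casp1, the protease that processes IL-18, stood at 2.81, 1.91 and 0.626 TPM against 0.860, 1.65 and 1.30 TPM. Its interval, -0.56 to 1.01, left room for changes of either sign. Nlrp3 stood at 0.927, 0.299 and 0.281 TPM against 0.103, 1.23 and 0.488 TPM, with the wild-type library 2 the highest of all 12.

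**Figure D1:**
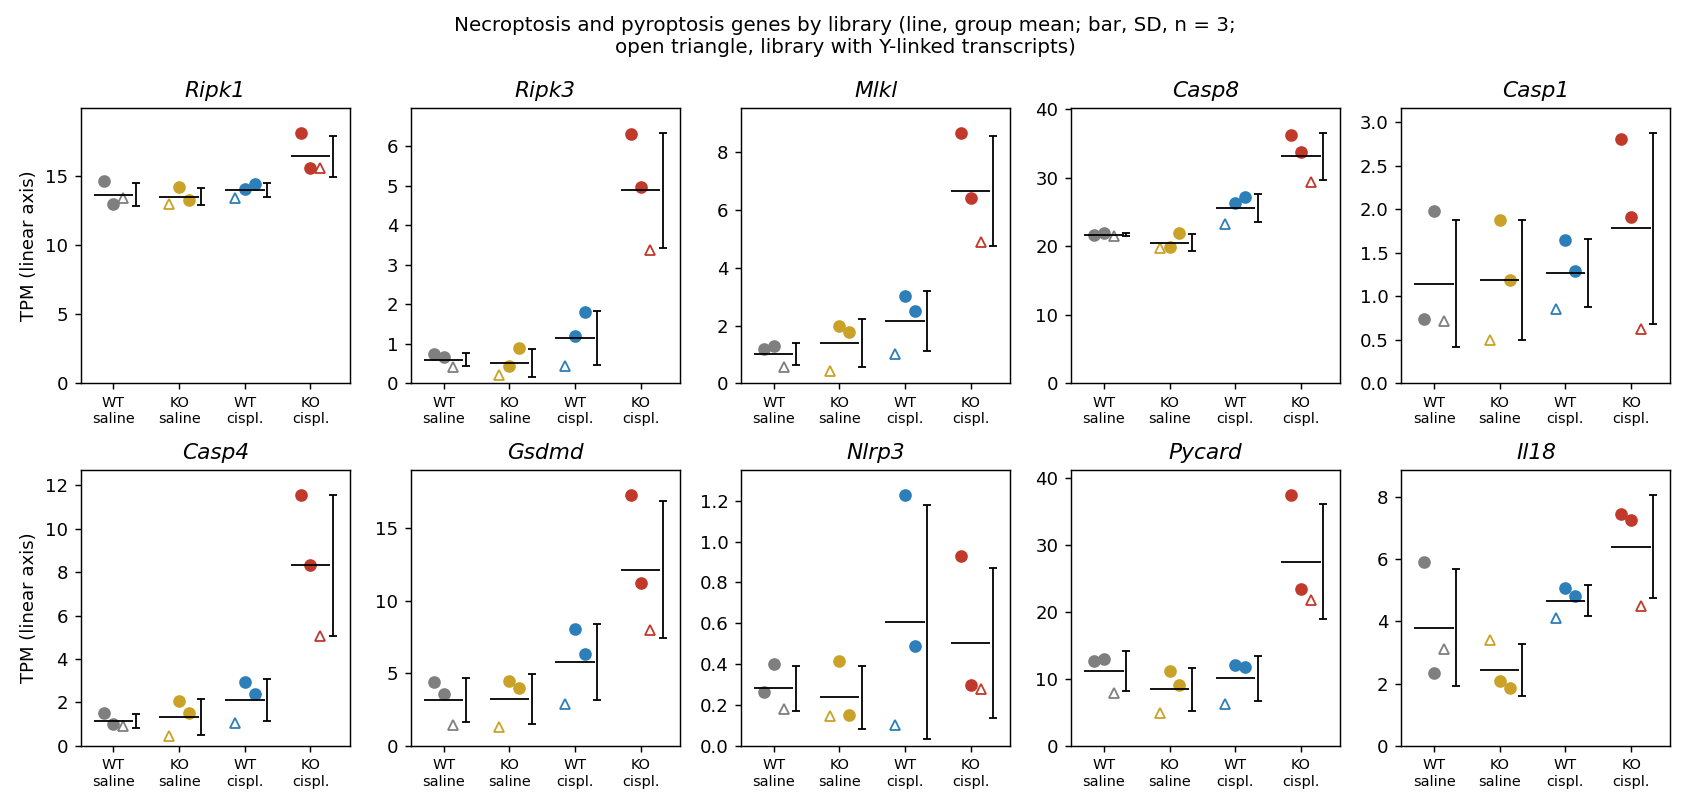
TPM of each of the 10 genes in the 12 libraries, by group (WT, wild-type; KO, FAN1KO; cispl., cisplatin), with the group mean, the SD (n = 3) and open triangles for the 4 libraries with Y-linked transcripts; each panel has its own linear axis from 0. Ripk1, Ripk3, Mlkl, Casp8, Casp4 and Pycard in the FAN1KO cisplatin kidneys lay above every other library, while Casp1 and Nlrp3 overlapped across all groups.

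Of the 10 genes, 6 were higher in all FAN1KO cisplatin than in all wild-type cisplatin libraries, which 35.7% of all tested genes also were. For a gene with such a gap the exact permutation test of 3 against 3 libraries gave p = 0.1, the smallest it allows. The counts depended on single libraries. Without FAN1KO cisplatin 1 only Ripk3 of the 9 genes was called (adjusted p = 0.0278). Without wild-type cisplatin 1 the count was 2, and without FAN1KO cisplatin 2 it was 3. Calls over all 14972 tested genes fell as well, from 2931 higher and 654 lower with all libraries. They were 1169 and 370 without FAN1KO cisplatin 1, 1442 and 453 without wild-type cisplatin 1, and 1536 and 402 without FAN1KO cisplatin 2. Casp4, Pycard and Mlkl had adjusted p of 0.0544, 0.0754 and 0.0944 without FAN1KO cisplatin 1. The Casp8 call was also lost without wild-type saline 2 or wild-type cisplatin 2 (adjusted p = 0.0502 and 0.0578), with the fit limited to the 6 cisplatin libraries (adjusted p = 0.0988) and with mitochondrially encoded genes left out (adjusted p = 0.0815). The Mlkl call was lost with a pseudocount of 0.1 (adjusted p = 0.0591).

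Markers of other cell types moved in the same libraries. The 14 macrophage and monocyte markers summed to 725, 327 and 298 TPM in the FAN1KO cisplatin kidneys and to 90.7, 308 and 248 TPM in the wild-type cisplatin kidneys, and FAN1KO cisplatin 1, the library with the highest sum, also had the highest level of every member but Nlrp3. Of the 14 markers, 3 rose (Cx3cr1, Cd14 and, at adjusted p = 0.0499, Cd68), 0 fell, and the median difference was 0.91, beside 19.6% of all tested genes called higher and a median of 0.24, so the count was near the background. C1qa had the largest difference of the 14, 1.85, and adjusted p = 0.0544. The difference was above 0 in 13 of the 14 markers. Csf1r, a receptor of the lineage, was lower on average, at 26.3 TPM in FAN1KO cisplatin and 33.5 TPM in wild-type cisplatin kidneys. The 7 neutrophil markers summed to 9.07, 7.83 and 11.6 TPM in FAN1KO cisplatin and to 1.76, 6.13 and 3.91 TPM in wild-type cisplatin kidneys. In wild-type saline kidneys they summed to 7.06 to 9.54 TPM. The 8 T and NK cell markers averaged a sum of 10.2 TPM in FAN1KO cisplatin and 5.32 TPM in wild-type cisplatin kidneys, with overlap. For the 4 B cell markers the averages were 5.16 and 2.59 TPM, also with overlap. No library exceeded 11.6, 14.7 and 7.95 TPM for these lists in turn. None of these markers was at 0 in every library. Only 2 of the neutrophil, 5 of the T and NK cell and 2 of the B cell markers passed the filter and were tested. Among the tested ones Cd8a alone was called, with a difference of 0.87 (adjusted p = 0.0428), beside 0.06 for Cd3e. Cd79b (0.86), Cd79a (0.24), S100a9 (0.92) and S100a8 (0.89) did not pass. The pan-leukocyte gene Ptprc had a difference of 0.44 that did not pass. Proximal tubule markers went the other way, 8 of 10 falling beside 4.37% of all tested genes, with sums of 3566, 4168 and 6901 TPM in FAN1KO cisplatin against 10084 to 11709 TPM in wild-type cisplatin kidneys. Slc22a6, an organic anion transporter, fell the most, by 2.04 on the log2 scale (adjusted p = 0.0446), and Slc5a2, at -0.34, did not pass. The 11 distal nephron and collecting duct markers summed to 3279 to 4008 TPM against 1959 to 4078 TPM, with 2 higher and 1 lower, from Calb1 at -1.40 to Aqp2 at 1.39. The part of cell composition in the differences of the necroptosis and pyroptosis genes was not tested.

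**Figure D2:**
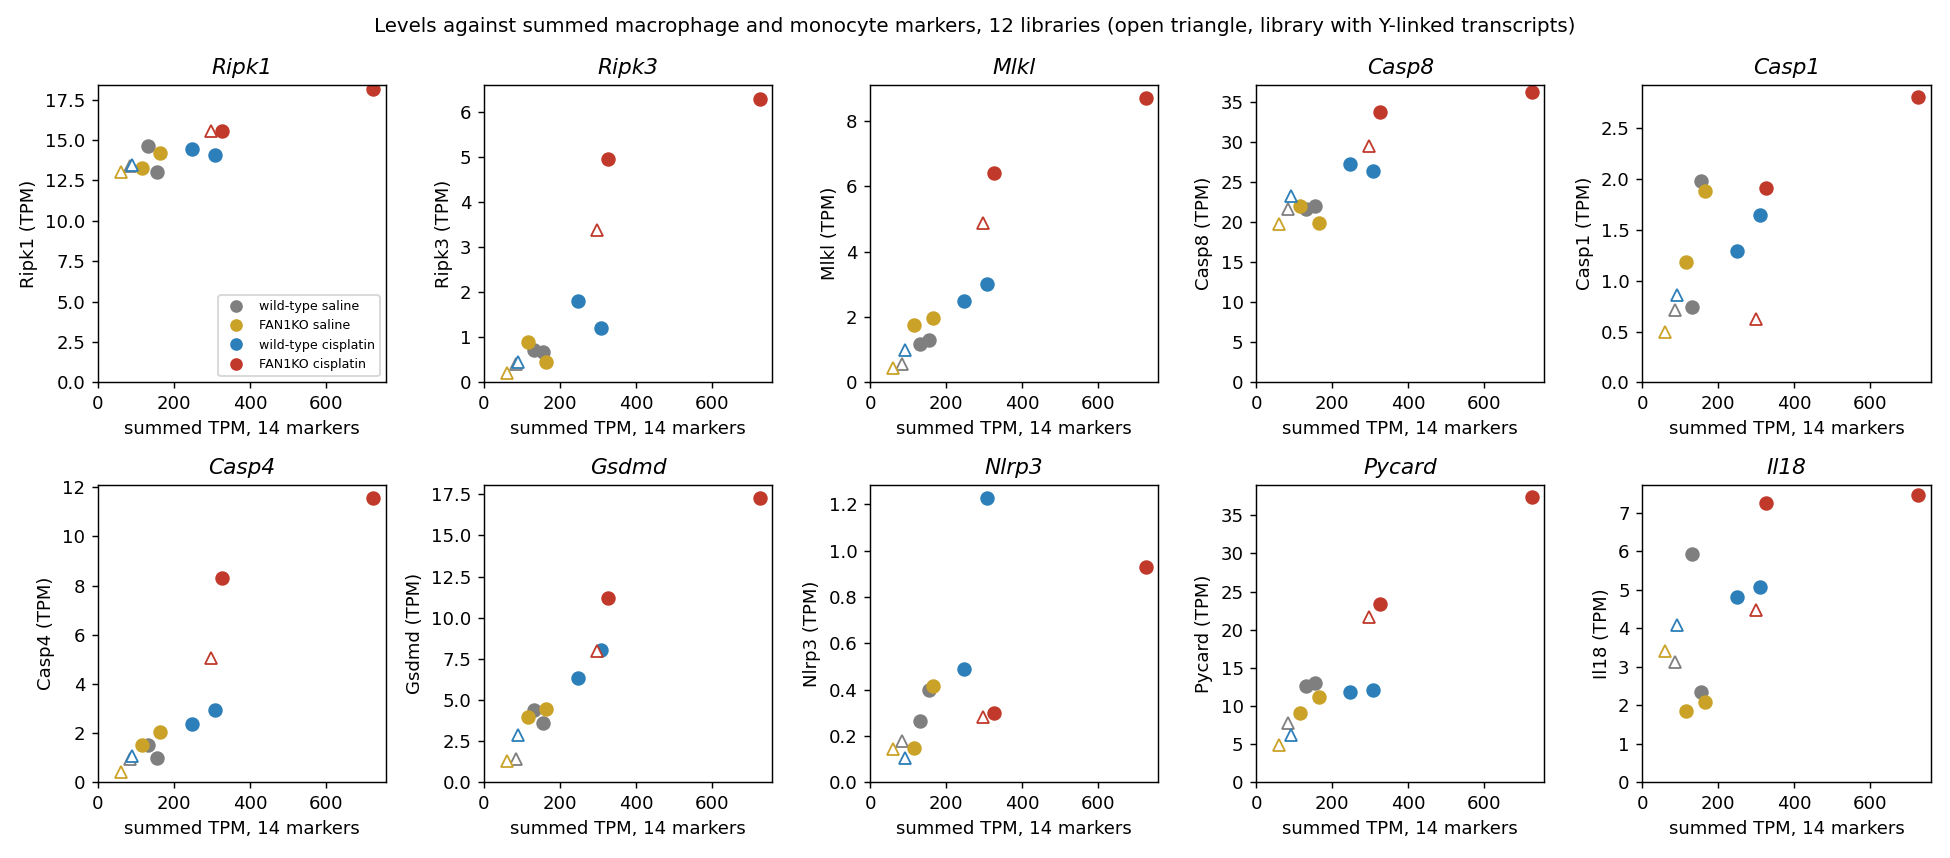
Level of each of the 10 genes (TPM, vertical axis) against the summed TPM of the 14 macrophage and monocyte markers (horizontal axis) in the 12 libraries, coloured by group, with open triangles for the libraries with Y-linked transcripts. FAN1KO cisplatin 1, at a sum of 725 TPM, lay apart from the other libraries, whose sums were at most 327 TPM.

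Saline kidneys were compared to ask whether the genotype alone moved these genes. None of the 9 tested genes was called by limma (0 at an unadjusted p under 0.05, and 0 with voom on recovered reads), beside 0.768% of all tested genes. The differences ran from -0.43 for Il18 to 0.20 for Mlkl, with a median of -0.02. All 10 genes overlapped between FAN1KO saline and wild-type saline kidneys, whereas 12.5% of all tested genes did not overlap. For Ripk3 the values were 0.209, 0.447 and 0.895 TPM in FAN1KO saline and 0.732, 0.668 and 0.406 TPM in wild-type saline kidneys. The 95% interval of its difference, -0.72 to 0.52, did not reach the 1.47 measured under cisplatin. Ripk3 was below 1 TPM in every saline library and entered the test only with the FAN1KO cisplatin libraries. Differences on this scale understate changes at such levels, so the interval cannot show that Ripk3 was unchanged in saline kidneys.

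Cisplatin was next compared with saline within FAN1KO kidneys. Here 7 of the 9 tested genes rose (Ripk3, Mlkl, Casp8, Casp4, Gsdmd, Pycard and Il18), beside 34.9% of all tested genes called higher and 39.8% called in either direction. The median difference was 1.62, against 0.37 over all tested genes. Of the 10 genes, 8 were higher in every FAN1KO cisplatin than in every FAN1KO saline library, as were 47.4% of tested genes.

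Casp4 and Ripk3 led again. Casp4 went from a mean of 1.33 ± 0.823 TPM (SD, n = 3) to 8.31 ± 3.24 TPM, a log2 difference of 2.01 ± 0.35 (SE, adjusted p = 0.00191). Ripk3 went from 0.517 ± 0.348 to 4.88 ± 1.46 TPM, a difference of 1.95 ± 0.28 (SE, adjusted p = 0.000700). Mlkl rose by 1.72 (adjusted p = 0.00354), Gsdmd by 1.67 (adjusted p = 0.0143) and Pycard by 1.62 (adjusted p = 0.00427).

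Il18 values were 3.40, 2.08 and 1.85 TPM in FAN1KO saline and 7.45, 7.25 and 4.48 TPM in FAN1KO cisplatin kidneys. The groups were separate, and the difference was 1.10 ± 0.28 (SE, adjusted p = 0.0119). Casp8 rose from 20.5 ± 1.25 to 33.1 ± 3.46 TPM, a difference of 0.66 (adjusted p = 0.00118). Under median-ratio scaling the differences of Casp8, at 0.21, and Il18, at 0.72, no longer passed, and that of Ripk1 was -0.17. The Gsdmd call was lost without FAN1KO saline 1 or FAN1KO cisplatin 1 (adjusted p = 0.0561 and 0.0655), and the Il18 call without FAN1KO cisplatin 1 (adjusted p = 0.0522). Ripk1 (0.26, adjusted p = 0.0671) and Casp1 (0.31, adjusted p = 0.511) did not pass as deposited.

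In wild-type kidneys, cisplatin moved none of the 9 tested genes past the threshold in limma (0 at an unadjusted p under 0.05, and 0 with voom on recovered reads), beside 0.0601% of all tested genes. The differences ran from -0.16 for Pycard to 0.70 for Gsdmd, with a median of 0.31. Casp8 was the only 1 of the 10 genes without overlap, which 6.28% of all tested genes also showed in either direction. It stood at 23.2, 26.4 and 27.2 TPM after cisplatin and 21.6, 22.0 and 21.6 TPM after saline, a difference of 0.22 with an interval from -0.01 to 0.46. Mlkl was 2.17 ± 1.04 TPM after cisplatin and 1.01 ± 0.385 TPM after saline. Wild-type cisplatin 1 had the lowest value of its group in all 10 genes.

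**Figure D3:**
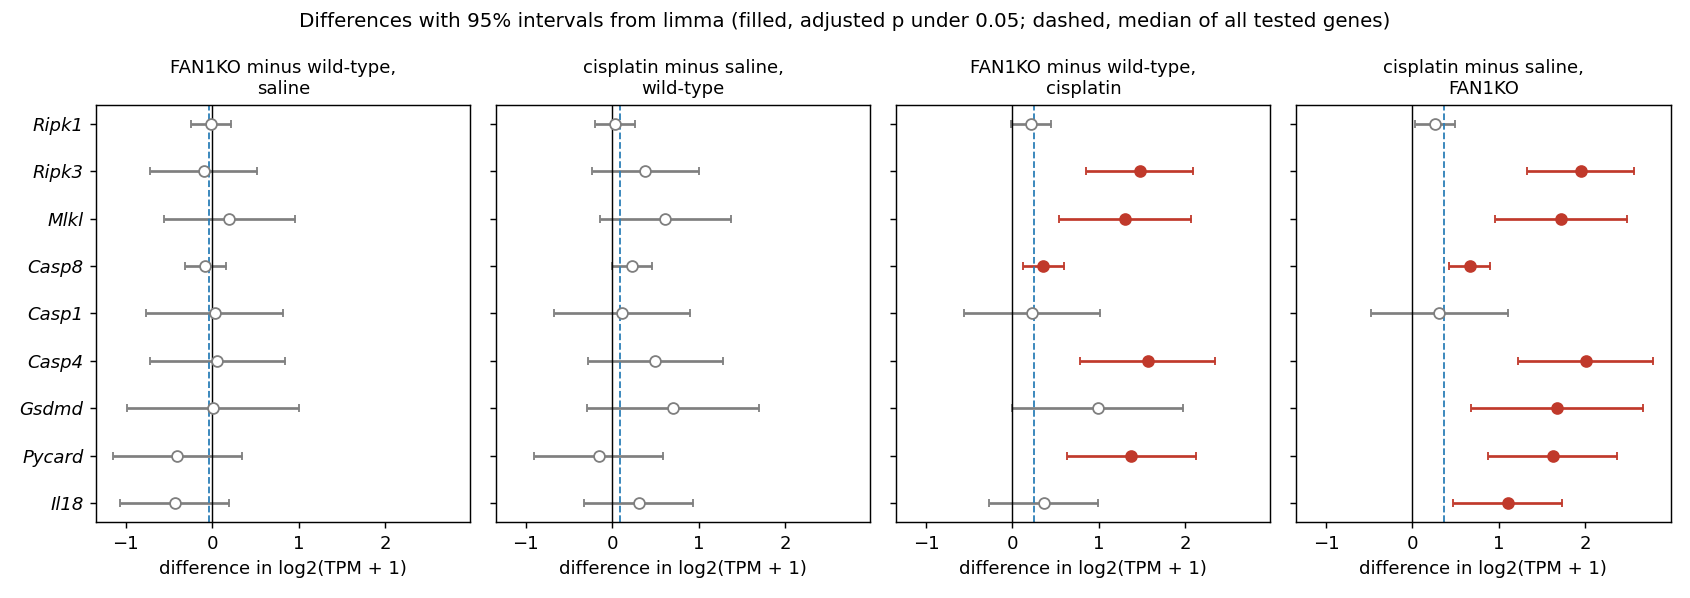
Differences in log2(TPM + 1) with 95% intervals for the 9 tested genes in the 4 group comparisons; filled points passed an adjusted p of 0.05, and the dashed line is the median of all tested genes. None of the 9 genes passed in either comparison without FAN1KO cisplatin kidneys, and 5 and 7 of them passed in the remaining comparisons, which share those 3 libraries.

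The interaction asked whether the cisplatin response differed between genotypes. Ripk3 was the only 1 of the 9 genes called, with an interaction of 1.57 ± 0.40 (SE, adjusted p = 0.0450), beside 6.24% of all tested genes. Pycard had the larger estimate, 1.78 ± 0.48, and adjusted p = 0.0526. Casp4 stood at 1.51 (adjusted p = 0.0943), and Mlkl, Casp8, Gsdmd, Il18, Ripk1 and Casp1 had adjusted p between 0.102 and 0.842. The Ripk3 call was lost in 16 of 21 alternatives, in which its adjusted p reached 0.118, and leaving out any library but wild-type cisplatin 3 or FAN1KO cisplatin 3 was enough to lose it. With a Y-linked covariate 6 of the 9 genes were called (Ripk3, Mlkl, Casp8, Casp4, Gsdmd and Pycard), beside 31.6% of all tested genes.

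The libraries with Y-linked transcripts were lower in most of these genes. In all 4 groups the library with Y-linked transcripts had the lowest value of its group for Ripk3, Mlkl, Casp8, Casp1, Casp4, Gsdmd, Nlrp3 and Pycard, in 3 groups for Ripk1 and in 2 for Il18. Gsdmd showed it most: the 4 libraries had 1.44, 1.27, 2.90 and 7.98 TPM, against 3.57 to 4.45 TPM in the other saline libraries of both genotypes, 6.30 and 8.06 TPM in wild-type cisplatin and 11.2 and 17.3 TPM in FAN1KO cisplatin. With group means kept in the model, the difference for Gsdmd was -1.01 ± 0.13 (SE, adjusted p = 0.000247). Of the 9 tested genes, 6 were called lower (Ripk3, Mlkl, Casp1, Casp4, Gsdmd and Pycard), in a contrast in which 50.0% of all tested genes were called lower and 56.3% in either direction, so the count was near the background. Under median-ratio scaling these 6 genes were still lower, whereas Ripk1 and Casp8 were higher by 0.24 and 0.19. Over all 14972 tested genes that scaling called 3907 higher and 3019 lower, so its background was not that of TPM as deposited. Both male and female mice were used according to the study's methods, and no other difference between these libraries is given in the labels. The comparison was chosen after the values were seen.

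Taking that difference into account changed Gsdmd in the genotype comparison under cisplatin. With the mean level of the Y-linked genes as a covariate its difference was 1.01 (adjusted p = 0.00110), and with the 4 libraries left out it was 0.88 (adjusted p = 0.0193). Ripk3, Mlkl, Casp8, Casp4 and Pycard were called in both of these fits, which called 48.9% and 36.7% of all tested genes. Ripk1, Casp1 and Il18 passed in neither.

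**Figure D4:**
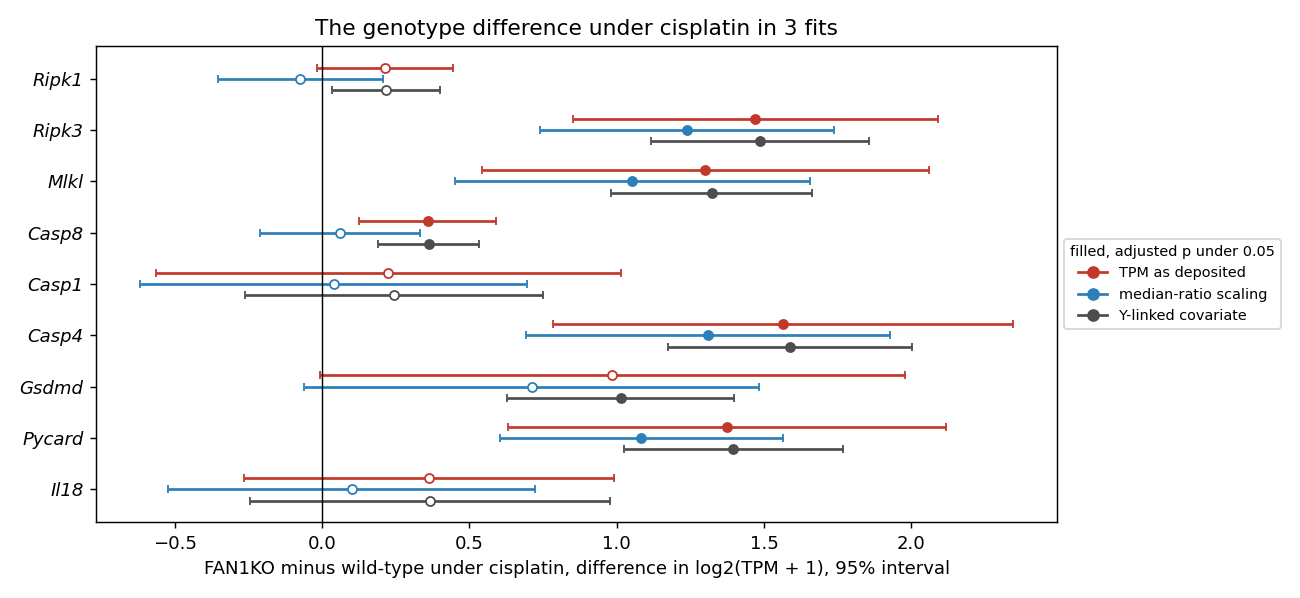
The FAN1KO minus wild-type difference under cisplatin, in log2(TPM + 1) with 95% intervals, for TPM as deposited, with the Y-linked covariate and after scaling by median ratios (filled, adjusted p under 0.05). Ripk3, Mlkl, Casp4 and Pycard were filled in all 3 fits, Casp8 was not filled after scaling, and Gsdmd was filled only with the covariate.

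Levels of Ripk3, Mlkl, Casp4, Gsdmd and Pycard ran closely together. Pearson's r between pairs of these 5 genes was between 0.91 and 0.98 over the 12 libraries (10 pairs), and between 0.80 and 0.97 after group means were removed. Genes outside these 5 were close to them too over the 12 libraries. Casp8 had r from 0.85 (Pycard) to 0.97 (Ripk3) with them, and Ripk1 from 0.87 (Gsdmd) to 0.93 (Casp4). Over all 45 pairs of the 10 genes, r ranged from 0.18 to 0.98. The libraries share depth, scaling and the Y-linked split, so these values only describe the 12 libraries. By the same measure the nearest genes outside the set were Pold1 and Utp14a for Mlkl, Itgb4 and Gtf2a2 for Ripk3, Nup62 and Supt5 for Casp4, and Plscr1 and C4bp-ps1 for Pycard, with r from 0.98 to 0.99. For Gsdmd they were Zswim8 (r = 1.00) and Ilk (r = 0.99), and for Casp8 Etv4 (r = 0.99) and Abhd4 (r = 0.98). The nearest genes were less close for Ripk1 (Synj1 and Lrrc42, both 0.97), Il18 (Ubox5 and Phc1, both 0.93) and Casp1 (Gm9182 at 0.93 and Pik3r1 at 0.91).

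Around the necroptosis members, 7 of 29 tested genes of the pathway (30 listed) rose in FAN1KO relative to wild-type cisplatin kidneys and 0 fell, with a median difference of 0.40. This was near the background of 19.6% of all tested genes called higher, with a median of 0.24. The 7 were Birc3 and Birc2, ubiquitin ligases of the TNF receptor complex, Traf2, which recruits them, Otulin and Tnfaip3, which take ubiquitin chains apart or edit them, Ikbkb, a kinase of the NF-kB pathway, and Chmp4b, a membrane repair subunit. Birc3 had the largest difference, with 21.0 ± 4.22 TPM in FAN1KO cisplatin and 7.32 ± 3.01 TPM in wild-type cisplatin kidneys, 1.47 on the log2 scale (adjusted p = 0.00937). Tnfaip3 followed with 1.20 (adjusted p = 0.0168), and Ikbkb was at the threshold (adjusted p = 0.0496). Under median-ratio scaling Otulin and Ikbkb did not pass. The count of 7 was 4 without wild-type cisplatin 1 and 2 without FAN1KO cisplatin 1. Calls over all tested genes fell as well in both fits. Among the ligands and receptors, Tnf was 1.18 ± 0.493 TPM against 0.649 ± 0.389 TPM and Tnfrsf1a 115 ± 23.2 TPM against 60.8 ± 25.5 TPM, and neither passed. Fadd, the adaptor of caspase-8, was 13.5 TPM against 13.3 TPM. Zbp1, another activator of RIPK3, was 1.94 TPM against 1.30 TPM and did not pass.

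Around the inflammasome members, 6 of 27 tested genes rose and 1 fell (40 listed), with a median difference of 0.49, again near the 19.6% called higher and 23.9% called either way over all tested genes. Il1rn, the antagonist of the IL-1 receptor, had the largest difference, at 10.0, 3.11 and 5.21 TPM in FAN1KO cisplatin and 0.264, 1.18 and 0.658 TPM in wild-type cisplatin kidneys (1.98, adjusted p = 0.00248). Il1rn was also the only gene of this list with a called interaction (adjusted p = 0.0256). It reached 1 TPM in 4 libraries, namely wild-type cisplatin 2 and every FAN1KO cisplatin library. Il1rn thus entered the test only with the FAN1KO cisplatin libraries. Txnip, a binding partner of NLRP3, rose by 1.55 (adjusted p = 0.0349) and Panx1, a membrane channel, by 1.21 (adjusted p = 0.0237). Serpinb1a, an inhibitor of inflammatory caspases, Irgm1 and Gsdme, another gasdermin, rose too. Nlrp6, an epithelial sensor, fell from 64.7 ± 8.80 to 35.5 ± 8.14 TPM (adjusted p = 0.00561). Il1b, the other cytokine of caspase-1, was 1.84 TPM against 1.31 TPM and did not pass. The members that moved included inhibitors as well as effectors. Irgm1 and Gsdme did not pass under median-ratio scaling. The 7 calls became 4 without wild-type cisplatin 1 or 3, 3 without FAN1KO cisplatin 2 and 2 without FAN1KO cisplatin 1. Calls over all tested genes fell in each of these fits as well.

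Between cisplatin and saline in FAN1KO kidneys, 17 of the 29 necroptosis pathway genes rose and 1, the ligand Tnfsf10, fell, beside 34.9% of all tested genes called higher and 39.8% either way. Their median difference was 0.64, against 0.37 over all tested genes. Under median-ratio scaling the counts were 12 higher and 2 lower, with a median of 0.25. Over all 14972 tested genes that scaling gave 2157 higher and 2101 lower, with a median of -0.03. Beside the 7 above, these were the ligand Tnf, the death receptors Tnfrsf1a, Fas and Tnfrsf10b, the adaptors Tradd and Fadd, Tab2 and Ikbkg of the NF-kB route, and the double-stranded RNA proteins Eif2ak2 and Adar. Tab2 and Fadd, which rose, were lower under median-ratio scaling. Of the 27 inflammasome pathway genes, 11 rose (among them Il1rn, Panx1, Irgm1, Il18r1, Txnip, Serpinb1a, Pstpip1, Gbp7, Gbp2 and Card9) and 1, Nlrp6, fell, with a median difference of 0.90. Under median-ratio scaling 5 were higher and 1 lower, with a median of 0.64. Fas rose by 1.22 (adjusted p = 0.00651) and Tnfrsf1a by 1.51 (adjusted p = 0.0100). Tnf, Il1rn and Il18r1 reached 1 TPM only in cisplatin libraries, Il18r1 only in the FAN1KO ones. None of these genes would have entered the test without the FAN1KO cisplatin libraries. In saline kidneys 0 of the 29 and 0 of the 27 genes differed by genotype in limma, beside 0.768% of all tested genes. At an unadjusted p under 0.05, 2 of each list did so, beside 1255 of all 14972 tested genes.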

How the data were processed

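Whole-kidney RNA was sequenced in 12 libraries, 3 mice per group, grouped by their labels. TPM values of 27179 genes, keyed by NCBI Gene number, were deposited by the authors as 1 table. Their processing notes name the mouse build mm10 and limma, and the aligner and annotation are not given in the sources used here. Symbols were added from RefSeq (25275 numbers matched). Reads, which limit the precision of low genes, were worked back from the spacing of the TPM: all 232991 nonzero values were whole within 0.005 of a read, and after random shifts 0 of 200 control genes were.

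Testing was limited to the 14972 genes that reached 1 TPM in 3 or more libraries. A model of 4 group means on log2(TPM + 1) was fitted with limma 3.58.1 (R 4.3.3) over all 12 libraries with a mean-variance trend, and p-values were adjusted by Benjamini–Hochberg over all tested genes with a threshold of 0.05. The test was checked on simulated data. For the group comparisons these held neither the split by Y-linked transcripts nor a shift of most genes. For single members a two-sided exact permutation test was added. Named genes were all members, up to 5 called list genes with the largest rises and falls by genotype under cisplatin, list genes called elsewhere, the 2 nearest genes by Pearson's r, Fan1, and each marker list's extremes. Il1b, Zbp1, Gsdme, Cx3cr1, Cd14, Cd68 and Ptprc were named after their values were seen. A called list gene is not reported here. The members and lists were chosen with earlier results of these data known. Alternatives were another pseudocount, no filter, the 6 libraries of a comparison, median-ratio scaling, no mitochondrially encoded genes, no trend, a replicate block, a Y-linked covariate and each library left out. Leaving out the libraries with Y-linked transcripts, and voom on recovered reads, were chosen after seeing the data. Promoter sequences are RefSeq's on GRCm38.p6. The labels do not say which replicates came from separate cages or days, so p-values measure the spread between these mice. TPM sum to the same total in every library, so a fall in abundant transcripts raises the others.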

Additional observations from a re-analysis of the deposited data

Results flagged for a closer look

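Ripk3 was picked out because its response to cisplatin differed between the genotypes by the interaction test, 1.57 in log2(TPM + 1) with adjusted p = 0.0450 in limma. Ripk3 reached 1 TPM only in cisplatin libraries, and it passed the filter on low values only with the FAN1KO ones, the group in which it was highest. With no filter the interaction had adjusted p = 0.0530, and the call was lost in 16 of 21 alternatives.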

How the results depend on the processing

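Single genes were followed in the comparisons of FAN1KO cisplatin kidneys and in the interaction. Of 585 alternative values, 527 kept direction and side of the threshold, 37 lost a call, 13 gained one and 8 changed sign. The causes were not tested. The 527 include genes that were not called and stayed so, and thus do not measure how stable the calls were. The Ripk3 interaction lost its call in 16 of 21 alternatives. By genotype under cisplatin, Casp8 lost it in 9 of 22 and Ripk3 in 0 of 22. Median-ratio scaling, under which the median of all tested genes moved from 0.24 to -0.02 by genotype under cisplatin and from 0.37 to -0.03 by cisplatin in FAN1KO kidneys, took calls over all genes from 2931 higher and 654 lower to 1300 and 1154 in the first and from 5229 and 733 to 2157 and 2101 in the second. It turned Ripk1 to -0.073, -0.17 and -0.11 in the 3 comparisons in turn, and the Casp1 interaction to -0.0045.

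With each library left out in turn, members called by genotype under cisplatin ranged from 1 to 5 (5 with all), those in the interaction from 0 to 1, necroptosis pathway genes from 2 to 8 (7 with all) and inflammasome pathway genes from 2 to 10 (7 with all). Over all tested genes, those called higher by genotype under cisplatin ranged from 1169 to 3144 (2931 with all). The Casp1 difference by genotype under cisplatin ranged from -0.044 to 0.57 and its interaction from -0.072 to 0.54. The interaction count, 1 with all libraries, was 0 with a pseudocount of 0.1, with no filter and without mitochondrially encoded genes, 6 with the Y-linked covariate and 3 without the 4 libraries with Y-linked transcripts. Under median-ratio scaling and with voom it was 1, and that gene was Pycard. Interaction calls over all tested genes changed too, from 782 higher and 153 lower with all libraries. They were 4088 and 646 with the covariate and 2004 and 434 without the libraries with Y-linked transcripts. Under median-ratio scaling they were 332 and 156, and with voom 716 and 138. With the pseudocount of 0.1 they were 565 and 133, with no filter 829 and 125, and without mitochondrially encoded genes 469 and 147. The pathway counts were 18 and 16 with the covariate and 14 and 12 without those 4 libraries, necroptosis first, in fits that called 48.9% and 36.7% of all tested genes.

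The replicate block left the interaction with 0 called members and changed no other count of members by over 1.5 times; the Casp8 call by genotype under cisplatin was lost (adjusted p = 0.0625). Deviations of same-numbered libraries had mean correlations from -0.24 to -0.14, and single ones ran from -0.61 to 0.60. In each comparison the libraries with Y-linked transcripts bore different numbers, so these correlations cannot decide whether the numbers pair the mice. The lowest libraries held 12 reads of Ripk3 and 14 of Nlrp3, which limits their precision.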
